A study of Mus musculus with 2 samples.

Results

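The Kruppel-like factors are transcription factors that bind GC-rich and CACCC-type DNA through zinc fingers at their C-terminal end. The 10 members described here, Klf2, Klf3, Klf4, Klf5, Klf6, Klf9, Klf10, Klf13, Klf16 and Klf17, were taken by gene symbol from 23418 rows of a table of counts per gene. The table held 7 other Klf genes and 9 genes of the related Sp family. The tested library, called siDnmt1, came from mouse embryos of the C57BL/6 background injected with an siRNA against Dnmt1, the methyltransferase that maintains DNA methylation through cell division. The other library, called siScrambled, came from embryos of the same background injected with a scrambled siRNA. Each group was 1 library from a pool of 20 embryos collected between the 4-cell and the 8-cell stage, so the differences below could not be checked in replicates and no p-value was computed. The series addresses how Dnmt1 acts on the genome of early mouse embryos. Fewer cells carrying a transcript and less of it per cell cannot be told apart in such pools, nor can a difference in the mix of stages.

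In mouse embryonic stem cells, Klf2, Klf4 and Klf5 overlap in function and help to hold the cells in the naive pluripotent state. Klf5 is needed in the mouse blastocyst for the trophectoderm and the inner cell mass, and Klf4 is one of the factors used to reprogram somatic cells. Klf3, Klf8 and Klf12 repress transcription through the corepressor CtBP, whereas Klf9, Klf10, Klf11, Klf13, Klf14 and Klf16 carry a motif that binds Sin3a. Klf17 is known in the mouse as a gene of germ cells and oocytes.

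The members share a domain of 3 zinc fingers, which a search of the translated GENCODE M21 transcripts found in all 10, with a length of 81 residues in each. The identity of this domain between 2 members ran from 54.3% to 91.4% of residues, with a median of 65.4% over 45 pairs. Klf2 and Klf4 were the closest pair at 91.4%. Klf17 was the most distant member, with no more than 61.7% identity to any other. The coding stretch that joins the first finger to the second is shown for the most abundant member, for Klf2 and Klf4 as the closest pair, and for Klf13. It starts at the last histidine codon of the first finger, and capitals mark bases that differ from Klf17.
Klf17: cacacaggtgtgaagcccttcgca
Klf2: cacacaggtgAgaagccTtATCAT
Klf4: cacacaggCgAgaaAccTtAcCAC
Klf13: cacacaggtgAgaGgccTttcgcC
Klf4 differed from Klf17 at 8 of these 24 bases, Klf2 at 7 and Klf13 at 4. Over whole annotated transcripts, the longest stretch that 2 members shared exactly was 36 bases, between Klf3 and Klf13. Klf3 alone among the members overlapped another annotated gene by exons, Gm20033 on the opposite strand. Whether reads were counted by strand is not given in the sources used, so the counts of Klf3 are uncertain.

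Promoter sequence is shown because DNA methylation in the mouse falls mainly on cytosines followed by guanine (CpG). RefSeq promoters on GRCm38.p6, from 250 bases before to 50 bases after the start, were matched by symbol for 7 of the 10 members. Klf5, Klf10 and Klf16 had no entry. The data hold no measure of methylation, so the sequences are a description. In the 3 promoters below, capitals mark CpG sites. They belong to the most abundant member and to the 2 members whose counts lay furthest below those of siScrambled. They lie at chr4:117765617-117765916 (minus strand, Klf17), chr4:55532426-55532725 (minus strand, Klf4) and chr7:63938866-63939165 (minus strand, Klf13).
Klf17: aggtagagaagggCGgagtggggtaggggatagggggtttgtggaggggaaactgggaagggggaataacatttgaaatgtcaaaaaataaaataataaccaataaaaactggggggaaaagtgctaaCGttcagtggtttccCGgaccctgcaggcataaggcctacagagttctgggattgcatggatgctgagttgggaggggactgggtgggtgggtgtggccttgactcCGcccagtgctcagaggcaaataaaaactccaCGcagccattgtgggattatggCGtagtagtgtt
Klf4: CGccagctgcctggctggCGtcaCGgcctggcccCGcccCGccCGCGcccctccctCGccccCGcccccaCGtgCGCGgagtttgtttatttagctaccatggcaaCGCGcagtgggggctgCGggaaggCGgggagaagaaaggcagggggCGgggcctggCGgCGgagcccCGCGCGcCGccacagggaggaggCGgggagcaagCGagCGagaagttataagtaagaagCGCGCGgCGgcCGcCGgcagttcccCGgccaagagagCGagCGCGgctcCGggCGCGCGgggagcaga
Klf13: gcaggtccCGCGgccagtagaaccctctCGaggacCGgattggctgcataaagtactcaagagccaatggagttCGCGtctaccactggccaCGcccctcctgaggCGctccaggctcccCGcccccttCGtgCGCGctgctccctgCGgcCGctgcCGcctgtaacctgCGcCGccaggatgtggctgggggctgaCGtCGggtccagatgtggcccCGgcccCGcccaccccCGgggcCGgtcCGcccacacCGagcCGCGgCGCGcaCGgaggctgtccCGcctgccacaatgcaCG
The promoter of Klf17 held 6 CpG sites, against a median of 7 over 32851 mouse promoters of the same length. The Klf4 promoter held 40 and the Klf13 promoter 32, and those of Klf2, Klf3, Klf6 and Klf9 held 32, 29, 23 and 28. The upper quartile of all promoters was 20 sites, and Klf17 was the one matched member at or below it. The letters CACCC, the core of a typical Klf site, stood on either strand in 5 of the 7 promoters and in 57.5% of all promoters. The letters GGGCGG, a typical Sp site, stood in 6 of the 7 and in 35.7% of all promoters. Matches of these 2 motifs may share bases. GC content was 50.7% in the Klf17 promoter and ran from 63% (Klf6) to 76.7% (Klf3) in the others matched. The median over all promoters was 52.7%, and promoters of like GC content were not compared.

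The libraries held 12236615 counts in siDnmt1 and 11675483 in siScrambled. Rn45s, the ribosomal RNA precursor, made up 37.3% of counts in siDnmt1 and 29.9% in siScrambled. The targeted gene, Dnmt1, had 687 counts in siDnmt1 and 847 in siScrambled, 1.23-fold lower (95% interval 1.11 to 1.37). Of the 7315 genes compared, 38.3% lay at or below Dnmt1 in log2 ratio. Intervals here are exact 95% Clopper-Pearson intervals of a ratio of counts and cover counting error only. All 12 genes of the list for cleavage-stage embryos had a count in at least 1 library, with sums of 8678 counts in siDnmt1 and 10286 in siScrambled. Of the 9 compared, under the rule given with the members below, 3 were at least 2-fold lower in siDnmt1, against 16.7% of all genes. At least 2-fold higher were 0, against 12.5%. The 3 lower ones were the oocyte and early embryo genes Dppa3 and Zp3 and the transcription factor gene Tfap2c. Dppa3 was 2.77-fold lower (2.10 to 3.70), Zp3 3.23-fold lower (1.70 to 6.56) and Tfap2c 2.05-fold lower (1.77 to 2.37). Counts were higher in siDnmt1 for 3 of the 9, against 48.7% of all genes compared, and lower for 6, against 50.8%. The higher ones were Tead4 (ratio 1.11, 1.05 to 1.18), Gdf9 (1.125, 0.625 to 2.04) and Sall4 (1.08, 1.02 to 1.14). Nothing particular to the list is read from 9 genes. The median log2 ratio of the 9 genes was -0.53, and -0.02 with the trend of ratios on transcript length removed. Removal took Dppa3 to -0.19, Zp3 to -0.62 and Tfap2c to -0.96, so none of these 3 stayed at least 2-fold lower. The part of these stage markers in the differences between Klf genes was not tested. Of 9 genes of the list for cumulus or granulosa cells, 8 had no count in either library, and the other, Amhr2, had 45 counts in siDnmt1 and 56 in siScrambled. The fibroblast collagens and the globins Hbb-b1 and Hba-a1 had no count. Ptprc, a leukocyte gene, had 16 counts in siDnmt1 and 6 in siScrambled.

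The comparison was limited to genes whose counts in the 2 libraries averaged 20 or more, which 8 of the 10 members did. Ratios of counts below are plain ratios. Thresholds were applied on the log2 scale, after adding 5 counts to each value. On that scale 0 of the 8 members were at least 2-fold higher in siDnmt1, against 12.5% of all genes compared. The members at least 2-fold lower were Klf4 and Klf13, 2 of 8, against 16.7% of all genes. Among 8 genes these counts are close to the shares over all genes and are not read as a property of the family. The median log2 ratio of the 8 members was -0.09, and that of all 7315 genes was -0.02. In 4 members counts were higher in siDnmt1 and in 4 lower.

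**Figure D1:**
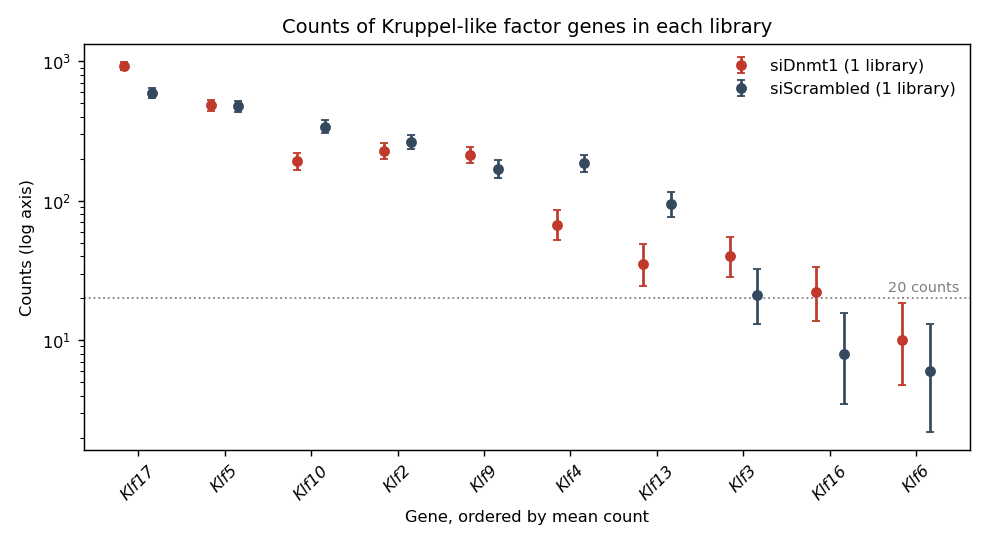
Counts of the 10 members in siDnmt1 (red, left of each pair) and siScrambled (dark blue, right), on a log axis. Bars are exact 95% Poisson intervals of 1 library each. Klf17 is the highest member in both libraries and is higher in siDnmt1 by more than its bars. Klf4, Klf10 and Klf13 are lower in siDnmt1 by more than their bars.

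Klf17 had the most counts of any member in both libraries. It had 918 counts in siDnmt1 and 589 in siScrambled, a ratio of 1.56 (1.40 to 1.73). By count it ranked 1079 among all rows in siDnmt1 and 1460 in siScrambled. Its log2 ratio of 0.64 stayed under the 2-fold threshold, and 77.2% of the genes compared lay at or below it. The difference exceeded counting error. Between these libraries, the middle 50% of genes had log2 ratios from -0.67 to 0.57, so Klf17 lay just above that range.

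The 3 members tied to naive pluripotency differed in their ratios. Klf5 had 484 counts in siDnmt1 and 475 in siScrambled, a ratio of 1.02 with an interval of 0.896 to 1.16. Klf2 had 227 counts in siDnmt1 and 264 in siScrambled, a ratio of 0.860 (0.717 to 1.03), so both intervals included equality. Klf4 had 67 counts in siDnmt1 and 185 in siScrambled, 2.76-fold lower (2.08 to 3.71). The log2 ratio of Klf4 was -1.40, and 9.76% of the genes compared lay at or below it. The interval of Klf4 did not overlap those of Klf2 and Klf5. Intervals did not overlap in 61.0% of all pairs of genes compared. Klf6, an activator of the same branch of the family, had 10 counts in siDnmt1 and 6 in siScrambled and was too low to be compared.

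Among the Sin3a-binding members, Klf10 and Klf13 were lower in siDnmt1 and Klf9 was higher. Klf10, an early response gene of TGF-beta signalling, had 192 counts in siDnmt1 and 339 in siScrambled, 1.77-fold lower (1.47 to 2.12). Klf13, known for control of the chemokine Ccl5 in T cells, had 35 counts in siDnmt1 and 95 in siScrambled, 2.71-fold lower (1.82 to 4.12). Its log2 ratio of -1.32 had 11.1% of genes at or below it. Klf9, a target of glucocorticoid and thyroid hormone receptors, had 213 counts in siDnmt1 and 169 in siScrambled, a ratio of 1.26 (1.03 to 1.55). Klf16, first described as a regulator of dopamine receptor genes, had 22 counts in siDnmt1 and 8 in siScrambled, a ratio of 2.75 (1.18 to 7.14). It fell under the mean of 20 counts, and its log2 ratio of 1.05 with the 5 added counts was the one value past 2-fold upward among all 10 members.

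Klf3, the CtBP-binding member, had 40 counts in siDnmt1 and 21 in siScrambled, a ratio of 1.90 (1.10 to 3.40). On the log2 scale this was 0.79, with 82.2% of the genes compared at or below it. Of the 8 members compared, 3 had an interval wholly above equality (Klf3, Klf9 and Klf17) and 3 wholly below it (Klf4, Klf10 and Klf13). Over all genes compared, 35.4% had an interval wholly above equality and 37.0% wholly below it, 72.4% in all, so the members' counts are close to those shares. Of the 28 pairs that these 8 members form, 18 had intervals that did not overlap, against 61.0% of all pairs of genes compared. Klf4, Klf10 and Klf13 overlapped with one another and with no other member.

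**Figure D2:**
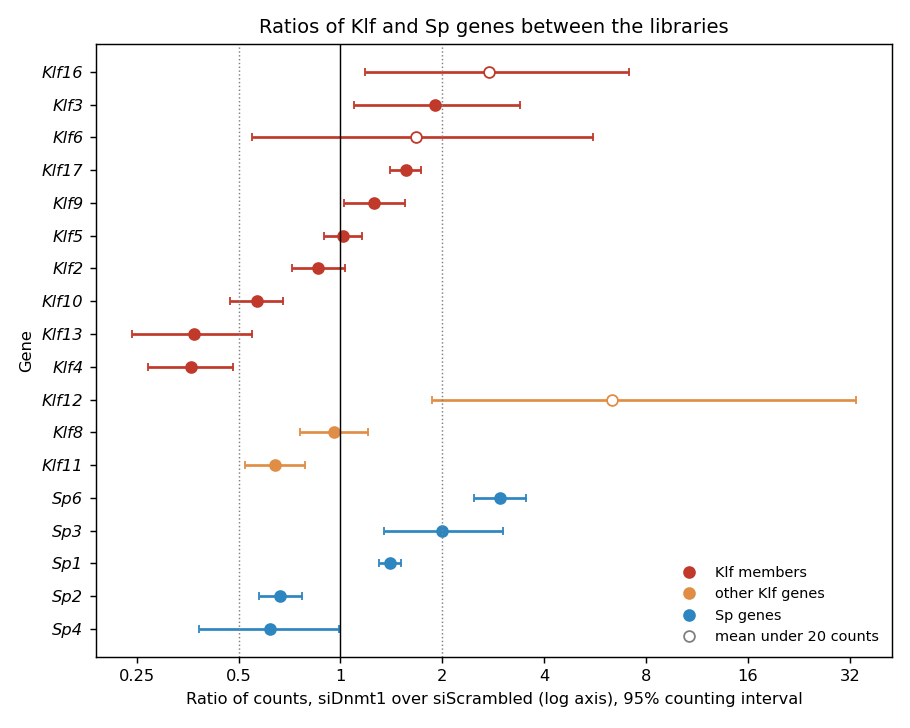
Ratios of counts in siDnmt1 over siScrambled for Klf and Sp genes with a count in both libraries, on a log axis, with exact 95% counting intervals. Open circles have a mean under 20 counts, and dotted lines mark 2-fold. Klf4 (0.362) and Klf13 (0.368) lie lowest among the members, and Sp6 (2.95) is the highest of the filled circles.

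The counts of the 10 members summed to 2208 in siDnmt1 and 2151 in siScrambled, a ratio of 1.03 (0.967 to 1.09). With the counts outside Rn45s set to equal totals, the ratio was 1.10 (1.03 to 1.16), so whether the interval of the sum includes equality depends on the scaling. The make-up of the sum is a share within each library and does not change with that scaling. Klf17 took 41.6% of the sum in siDnmt1 (exact 95% binomial interval 39.5 to 43.7) and 27.4% in siScrambled (25.5 to 29.3). Klf4 took 3.03% in siDnmt1 (2.36 to 3.84) and 8.60% in siScrambled (7.45 to 9.87). The share of Klf10 was 8.70% in siDnmt1 (7.55 to 9.95) and 15.8% in siScrambled (14.2 to 17.4). That of Klf5 was 21.9% in siDnmt1 and 22.1% in siScrambled. A sum over genes is weighted by transcript length and by the most abundant gene, so these shares describe counts and not molecules.

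**Figure D3:**
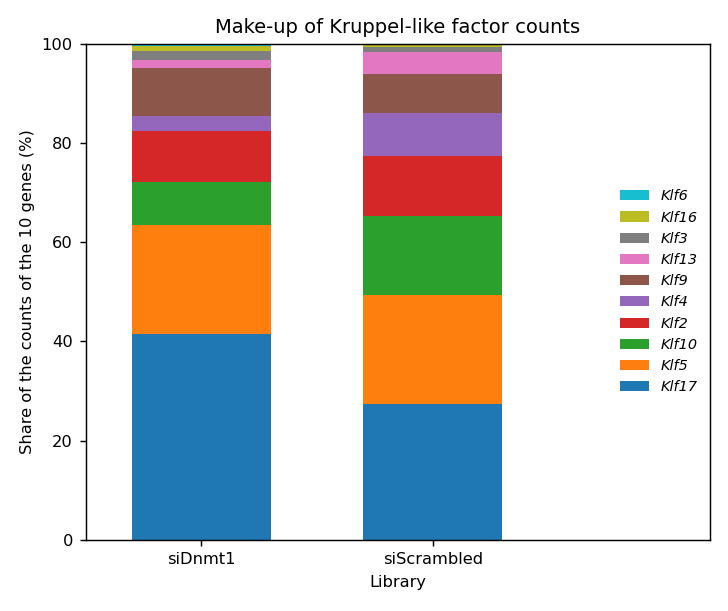
Share of each member in the summed counts of the 10 members, in percent, for siDnmt1 (left bar) and siScrambled (right bar). The Klf17 share is 41.6% in siDnmt1 and 27.4% in siScrambled, and the Klf5 share is 21.9% in siDnmt1 and 22.1% in siScrambled.

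Levels of different genes were compared as counts per kilobase of the longest annotated transcript and per 1000000 counts outside Rn45s. Klf17 was the highest Klf gene on this scale in both libraries, with a level of 49.9 (46.7 to 53.2, counting error) in siDnmt1 and 30.0 (27.6 to 32.5) in siScrambled. Klf5 and Klf2 followed with levels of 18.8 and 16.0 in siDnmt1 and 17.3 and 17.5 in siScrambled. The order of these 2 genes differed between the libraries, and their intervals overlapped in both. Klf10 came next, with a level of 8.22 in siDnmt1 and 13.6 in siScrambled. In siScrambled, Klf4 (7.46) lay level with the non-member Klf11 (7.56) and above Klf9 (4.60). In siDnmt1 the level of Klf4 was 2.88, below Klf9 (6.19), Klf11 (5.17) and the non-member Klf8 (4.12), though its interval overlapped that of Klf8. Klf13 had a level of 0.713 in siDnmt1 and 1.81 in siScrambled. Klf16 had a level of 1.07 in siDnmt1 and 0.365 in siScrambled, and Klf6 had 0.309 in siDnmt1 and 0.173 in siScrambled. Klf3 lay next to Klf16 in both libraries, with intervals that overlapped.

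**Figure D4:**
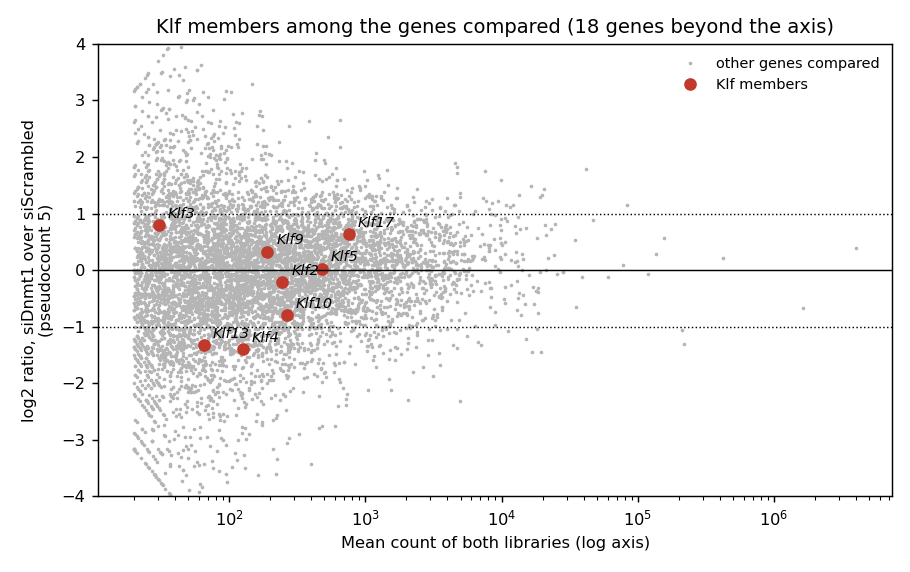
Log2 ratio of siDnmt1 over siScrambled (5 counts added to each) against mean count (log axis) for the 7315 genes compared, with the 8 members in red. Dotted lines mark 2-fold, and 18 genes lie beyond the vertical axis. Klf4 and Klf13 lie below the lower line, and no member lies above the upper one.

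Log2 ratios in these libraries were related to transcript length over all genes. The shortest 25% of genes, up to 2604 nt, had a median log2 ratio of -0.43, and the longest 25%, from 5256 nt, had 0.18. Klf2 has the shortest transcript of the 8 members, at 1847 nt, and the trend at its length was -0.36. With the trend removed, the log2 ratio of Klf2 was 0.15 instead of -0.21, so its sign depends on this step. Klf4 (3029 nt) and Klf13 (6396 nt) had log2 ratios of -1.34 and -1.48 with the trend removed, and Klf10 (3044 nt) had -0.75. Klf17 had 0.79 and Klf3 0.66, and the median of the 8 members was 0.10.

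**Figure D5:**
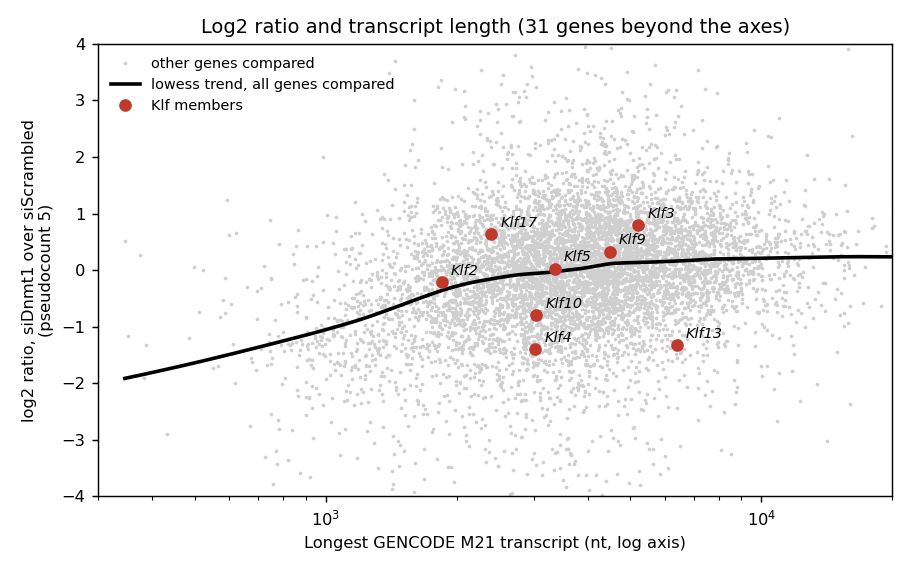
Log2 ratio of siDnmt1 over siScrambled (5 counts added to each) against the longest annotated transcript (log axis) for the genes compared, with the lowess trend over all of them in black and the 8 members in red. Genes beyond the axes are counted in the title. Klf4, Klf10 and Klf13 lie well below the trend at their lengths, and Klf17 and Klf3 lie above it.

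The 7 other Klf genes in the table were mostly low. Klf8, a CtBP-binding repressor, had 150 counts in siDnmt1 and 157 in siScrambled. Klf11, like Klf10 an early response gene of TGF-beta signalling, had 162 counts in siDnmt1 and 253 in siScrambled, 1.56-fold lower (1.28 to 1.91). Klf12 had 19 counts in siDnmt1 and 3 in siScrambled, a ratio of 6.33 with a wide interval (1.86 to 33.4). Klf14 had 5 counts in siDnmt1 and 0 in siScrambled, and Klf7 had 3 counts in siDnmt1 and 0 in siScrambled. Klf1, the erythroid founder of the family, and Klf15 had no count in either library. Over all Sin3a-binding Klf genes, 629 counts in siDnmt1 stood against 864 in siScrambled, and 3 of the 4 compared had fewer counts in siDnmt1, as 50.8% of all genes compared did.

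The Sp genes encode the nearest relatives of the Klf proteins and bind similar GC-rich sites. Of 9 Sp genes, 5 were compared, 1 was at least 2-fold higher in siDnmt1 (12.5% of all genes) and 0 at least 2-fold lower (16.7%). Sp6, an epithelial and tooth regulator, had 520 counts in siDnmt1 and 176 in siScrambled, a ratio of 2.95 (2.49 to 3.53). Sp3 had 78 counts in siDnmt1 and 39 in siScrambled, which is 0.92 on the log2 scale and just under the threshold. Sp1, the ubiquitous member, had 1601 counts in siDnmt1 and 1142 in siScrambled, a ratio of 1.40 (1.30 to 1.51). Sp2 (315 in siDnmt1, 474 in siScrambled) and Sp4 (31 in siDnmt1, 50 in siScrambled) were 1.50-fold and 1.61-fold lower. Sp8 had 1 count in siDnmt1 and 0 in siScrambled, and Sp5, Sp7 and Sp9 had none.

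Of 11 genes compared among the corepressors and coactivators that Klf proteins recruit, 4 were at least 2-fold lower in siDnmt1, against 16.7% of all genes, and 0 at least 2-fold higher, against 12.5%. Nothing particular to the list is read from 4 genes. Both CtBP genes, which encode the partners of Klf3, Klf8 and Klf12, were among the 4, and Ctbp1 is named after its value was seen. Ctbp2 had 40 counts in siDnmt1 and 139 in siScrambled, 3.48-fold lower (2.43 to 5.07), and Ctbp1 had 42 counts in siDnmt1 and 100 in siScrambled, 2.38-fold lower (1.64 to 3.50). Kat2b, a histone acetyltransferase, was 3.27-fold lower (2.45 to 4.42). The Sin3a corepressor, the partner of the Klf9 and Klf10 group, had 1430 counts in siDnmt1 and 946 in siScrambled, a ratio of 1.51 (1.39 to 1.64). The deacetylase Hdac1 had a ratio of 1.78 and the acetyltransferase Crebbp 1.35. The median log2 ratio of the 11 genes was 0.09, and with the length trend removed it was -0.11, so its sign depends on that step.

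LIF signals through Lifr, Il6st, Jak1 and Stat3 and maintains Klf4 in mouse embryonic stem cells. Of the 6 genes on that list, 1 was at least 2-fold higher in siDnmt1 (12.5% of all genes) and 2 at least 2-fold lower (16.7% of all genes). Socs3, the feedback inhibitor that Stat3 induces, had 215 counts in siDnmt1 and 814 in siScrambled, 3.79-fold lower (3.25 to 4.42). Lifr had 10 counts in siDnmt1 and 33 in siScrambled, and Lif had 35 counts in siDnmt1 and 66 in siScrambled. Jak1 had 767 counts in siDnmt1 and 345 in siScrambled, a ratio of 2.22 (1.96 to 2.53), and Il6st had 75 counts in siDnmt1 and 42 in siScrambled. Stat3 itself was nearly equal, with 105 counts in siDnmt1 and 104 in siScrambled. The median log2 ratio of the 6 genes was -0.41.

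The kinase ERK5 (Mapk7) and its MEF2 factors induce Klf2 and Klf4 in endothelium. The 4 genes compared on this list all had more counts in siDnmt1, as 48.7% of all genes compared did. Of these 4, 0 were past 2-fold in either direction, against 29.1% of all genes. Their median log2 ratio was 0.77, or 0.59 with the length trend removed. Mapk7 had 56 counts in siDnmt1 and 27 in siScrambled, a plain ratio of 2.07 that is 0.93 on the log2 scale with 5 counts added. Map3k2 had 114 counts in siDnmt1 and 65 in siScrambled. Mef2d had 130 counts in siDnmt1 and 74 in siScrambled, and Map3k3 had 630 in siDnmt1 and 478 in siScrambled. TGF-beta and SMAD signalling induces Klf10 and Klf11. Of its 6 genes compared, 1 was at least 2-fold higher in siDnmt1 (12.5% of all genes) and 0 at least 2-fold lower (16.7%), with a median log2 ratio of 0.75. Smad7, the inhibitory SMAD, had 117 counts in siDnmt1 and 21 in siScrambled, a ratio of 5.57 (3.48 to 9.34). Smad2 and Smad3 had ratios of 1.93 and 1.83, Tgfb1 1.75 (0.915 to 3.46) and Tgfbr1 0.966 (0.708 to 1.32), and Smad4, with 1443 counts in siDnmt1 and 1800 in siScrambled, was 1.25-fold lower.

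Ubiquitin ligases and deubiquitinases that act on Klf proteins had 0 of 6 genes past 2-fold in either direction, against 29.1% of all genes. Their median log2 ratio was 0.24. Wwp1, a ligase for Klf2 and Klf5, had 34 counts in siDnmt1 and 16 in siScrambled, which is 0.89 on that log2 scale. Vhl had a ratio of 1.36, Btrc 1.26 and Usp10 1.11, and Siah1a (121 counts in siDnmt1, 218 in siScrambled) was lower. Bap1 had 155 counts in siDnmt1 and 181 in siScrambled, a ratio of 0.856 whose interval of 0.687 to 1.07 included equality. Of 10 genes compared among those that Klf2, Klf4 or Klf5 control, 1 was past 2-fold upward (12.5% of all genes) and 0 downward (16.7%), with a median log2 ratio of 0.10. Cdkn1a, the cell cycle inhibitor p21, had 1034 counts in siDnmt1 and 440 in siScrambled, a ratio of 2.35 (2.10 to 2.63). Nanog had 40 counts in siDnmt1 and 23 in siScrambled, and Tfcp2l1 had a ratio of 1.44. Esrrb, Pou5f1 and Fbxo15 were 1.54-fold, 1.45-fold and 1.29-fold lower. The sign of Pou5f1, whose longest transcript has 1362 nt, depends on the length trend, with a log2 ratio of -0.53 before and 0.20 after its removal. Tcl1, named after its value was seen, had 0 counts in siDnmt1 and 33 in siScrambled and averaged under 20 counts. Sox2 and Lefty1 had no count in either library.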

How the data were processed

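RNA was captured on oligo-dT beads from 2 pools of embryos, turned into adapter-tagged cDNA by pico-profiling, amplified by 20 cycles of PCR and sequenced from both ends, per the labels' protocols. The protocols describe no molecular identifiers, so copies made by PCR count as separate molecules. The submitters' processing notes name Trim Galore, HISAT2, HTSeq and DESeq2, without versions, and the build mm9. The deposited table holds whole-number counts per gene and is described as DESeq2-normalised. Among low values 0 whole numbers from 1 to 59 were skipped, and none from 2 to 30 piled up, so the deposited counts were used unscaled. A scaling within about 1% of equality could not be seen. A downward scaling could be missed further from equality, because pile-ups were searched over a shorter range. DESeq2 size factors recomputed from the table were 1 for both columns. Annotation, strand setting and handling of multi-mapped reads are not given in the sources used.

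For log2 ratios, 5 counts were added to each value, so changes of low genes are understated. Members were fixed by symbol, and the other lists and the rule for named genes were written by hand. All were chosen with earlier results of these data known. The genes named are Dnmt1, every Klf and Sp gene with a count, and the 3 highest and 3 lowest of each list at a mean of 20 counts (all, where 6 or fewer). A gene that this rule takes is not reported here. Lengths come from the longest GENCODE M21 transcript of a symbol and were found for 99.4% of the genes compared. Names on 27 rows had become dates and stayed in as counts. The size rule and intervals were tested on simulated counts that held counting error only. That test does not cover amplification or differences between pools. Tools were Python 3.11.15, pandas 2.3.3, scipy 1.17.1, statsmodels 0.14.6, edgeR 4.0.16 and DESeq2 1.42.0.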

Additional observations from a re-analysis of the deposited data

How the results depend on the processing

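With 1 library per group, no result could be set against replicates, and counting intervals leave out amplification and differences between pools. Depth limits Klf6, Klf16, Klf7, Klf12 and Klf14, whose counts are too few to place. The deposited counts were set against 2 other pseudocounts, 2 other filters, 5 other scalings, a length trend and a 4-fold threshold. With no filter on low counts, 1 of 10 members was at least 2-fold higher in siDnmt1 (Klf16). The median of the members was then 0.18. Of all 23418 genes, 1682 were at least 2-fold higher and 2122 lower under that setting. At a mean of at least 100 counts, 6 members were left and 1 was at least 2-fold lower (Klf4, since Klf13 was filtered out). Of the 4233 genes left by that filter, fewer than in the main comparison, 395 were at least 2-fold higher and 482 lower. At a 4-fold threshold 0 of 8 members were lower and 0 higher. The share of all genes past 4-fold was not computed, so nothing is read from these counts. Under the 5 scalings and the length trend, Klf4 and Klf13 were the members at least 2-fold lower and 0 were higher, and the median of the members ran from -0.16 to 0.10. Of the 5 scalings, the DESeq2 size factors were 1 for both libraries, so that setting repeats the deposited values and adds no check. Over these settings and the other pseudocounts and filters together, log2 ratios ran from -1.46 to -1.24 for Klf4 and from -1.48 to -1.06 for Klf13. They ran from -0.87 to -0.71 for Klf10 and from 0.57 to 0.79 for Klf17. The sign of Klf5 and Klf2 was not settled, with ranges of -0.04 to 0.12 and -0.28 to 0.15. Equal totals outside Rn45s moved the genes past 2-fold from 42.7% higher to 49.5% higher. No paired analysis was possible because each group has 1 library and the labels give no replicate numbers.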
